A study of Mus musculus with 8 samples.

Results

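The genes of the ADAM (a disintegrin and metalloproteinase), ADAMTS (ADAM with thrombospondin motifs) and ADAMTS-like (Adamtsl) families were described in primordial follicles of the neonatal mouse ovary. Members were chosen by symbol, as every gene whose symbol begins with Adam and a digit or with Adamts, which gave 56 of the 26586 genes listed: 32 Adam, 19 Adamts and 5 Adamtsl genes. The families were singled out because of Adam33, which had been chosen by its values in the mito-supplemented and control libraries, so that the difference of Adam33 between the groups is a description, and tests of all genes that include it lend it no support. RNA-Seq counts were available for 4 samples from third-generation offspring of founders made by mitochondrial supplementation (mito-supplemented) and 4 samples from colony controls, all recorded as of C57Bl/6 x CBA background. The founders came from oocytes of F1 females (C57BL6/J/MARP crossed with CBA/MARP) and had received mitochondria from egg precursor cells together with the spermatozoon at intracytoplasmic sperm injection. Each sample was total RNA from follicles isolated by enzyme digestion from ovaries on postnatal day 3. Some sample codes within a group share their first part, whose meaning is not given in the labels, so p-values measure the spread between these samples, which may come from related animals. The control libraries held 17658559, 13917412, 18219362 and 10370045 counts and the mito-supplemented libraries 19760763, 13370911, 16116434 and 13276462, here and below in the order of replicates 1 to 4.

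ADAM proteins are membrane-anchored proteases that cut the extracellular part of other membrane proteins from the cell surface, a step called ectodomain shedding, while several relatives have lost the catalytic residues and act in adhesion, and many are made in the testis. ADAMTS proteins are secreted into the extracellular matrix, where they cut proteoglycans, process procollagens or act on microfibrils, and ADAMTS1 is known in the ovary for cutting versican around ovulation. ADAMTS-like proteins resemble the ancillary domains of ADAMTS proteins without the protease domain, and bind to fibrillin microfibrils.

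The catalytic members share the extended zinc-binding motif of their protease class, in which histidine, glutamate, histidine, glycine and histidine stand at fixed spacing. The motif was looked for in the longest complete coding sequence of each gene in GENCODE M21 (GRCm38), and all 56 members were matched. It was present in 19 of 32 Adam genes, 13 of 19 Adamts genes and 0 of 5 Adamtsl genes, against 68 of 21591 protein-coding genes searched (0.315%), 32 of which were members. A form with asparagine in the place of glycine, looked for after the first result was seen, was present in 5 further Adamts genes (Adamts1, Adamts4, Adamts9, Adamts15 and Adamts20), and these were all 5 of the 21591 genes that held it (0.0232%). Adamts8 held neither form. The 33 bases that code for the motif are shown for Adam33 and 11 of the other named members that carry it, to show how the 2 forms differ. That of Adamts19, which carries the glycine form, is not shown. The sequences are given 5′ to 3′ on the coding strand, with the codons of the 5 fixed residues in capitals.
Adam33: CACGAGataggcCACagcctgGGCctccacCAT
Adam10: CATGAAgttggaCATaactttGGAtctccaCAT
Adam17: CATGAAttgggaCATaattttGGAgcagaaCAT
Adam9: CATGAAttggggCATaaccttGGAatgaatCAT
Adam12: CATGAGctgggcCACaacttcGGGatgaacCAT
Adamts16: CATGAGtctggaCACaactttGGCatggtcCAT
Adamts17: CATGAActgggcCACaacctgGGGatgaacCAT
Adamts18: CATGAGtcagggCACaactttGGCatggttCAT
Adamts10: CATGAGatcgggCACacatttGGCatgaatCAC
Adamts1: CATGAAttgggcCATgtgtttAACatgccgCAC
Adamts9: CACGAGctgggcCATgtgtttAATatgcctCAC
Adamts15: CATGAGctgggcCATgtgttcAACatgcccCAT
The 4th capital codon is one for glycine (GGA, GGC or GGG) in the first 9 sequences and for asparagine (AAC or AAT) in Adamts1, Adamts9 and Adamts15. The motif of Adam33 begins at codon 346 of a coding sequence of 797 codons, and that of Adam10 at codon 384 of 749. The motif was absent from 13 Adam genes, among them Adam22, Adam23 and Adam11, which are known as catalytically inactive proteins of the nervous system.

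The libraries differed in their content of cell type markers, for some lists within the groups and for others also between them. The follicle label was checked against 15 oocyte markers, of which all were listed and 12 were tested. Their summed level was 3446, 198, 169 and 599.6 CPM in the controls and 298, 175, 699 and 94.8 CPM in the mito-supplemented libraries, with Nlrp5 the most abundant, so that oocyte transcripts were present in every library and highest in control replicate 1. Oosp1 had 0 counts in 6 of the 8 libraries, and Bmp15 had 0 in control replicates 3 and 4 and mito-supplemented replicate 4. Markers of erythroid cells, 8 of 10 of which were listed, summed to 21.1, 7525, 4994 and 72.2 CPM in the controls and 7523, 123, 32.8 and 33.8 CPM in the mito-supplemented libraries, with Spna1 (spectrin alpha) the most abundant and Hba-a1 at 0 in all but mito-supplemented replicate 1, which sets control replicates 2 and 3 and mito-supplemented replicate 1 apart. The 10 stroma markers, with Col3a1 the most abundant, summed to 441, 546, 819.5 and 2666 CPM in the controls and 1087, 1095, 2987 and 2533 CPM in the mito-supplemented libraries. The 10 surface epithelium markers, with Lgr5 the most abundant, summed to 90.2, 53.6, 32.997 and 370.3 CPM in the controls and 405, 999.7, 427 and 791 CPM in the mito-supplemented libraries, and here each mito-supplemented library lay above each control. In bulk samples, fewer cells of a type and less RNA per cell cannot be told apart. Control replicate 4 held only 2559876 counts outside the rRNA genes Rnr1, Rnr2, Rn45s and Rn18s, against 7280214 to 15778975 in the other libraries.

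Of the 56 members, 33 passed edgeR's filter on low counts and were tested among 13873 genes: 13 of 32 Adam, 17 of 19 Adamts and 3 of 5 Adamtsl genes. Counts were found in all 8 libraries for 12 Adam, 13 Adamts and 1 Adamtsl gene. Another 8 Adam genes (Adam2, Adam24, Adam26a, Adam26b, Adam28, Adam29, Adam34 and Adam6a) had 0 counts in every library, which allows up to 0.123 CPM (normalized by TMM) in control replicate 1 and 0.592 CPM in control replicate 4, where 3 counts are taken as the limit for counting error only. The other 11 Adam genes not tested had between 2 and 69 counts over all libraries. Chromosome 8 carried 12 of the Adam genes, 11 of which were not tested, and Adam9 was the exception. The genes just outside the filter, chosen after their values were seen, included Adam39, with 21 counts in mito-supplemented replicate 4 and 0 in the other libraries, and Adam3, with 67 of its 69 counts in control replicate 1. Adamts4, which cuts the proteoglycan aggrecan, had 82 counts, and Adamts13, which cuts von Willebrand factor, had 29. Adamtsl3 had 65 counts in all and Adamtsl2 had 36.

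Levels of different genes were compared as CPM per kb of exon, averaged over the 8 libraries. Adam10, the protease that sheds Notch receptors and cadherins, had the highest mean of all members at 24.2 ± 14.6 CPM per kb (SD, n = 8). It was the highest member in control replicates 2 and 3 and mito-supplemented replicate 1 only, the libraries with high erythroid markers (46.7, 40.4 and 34.9 CPM per kb). The highest member was Adam12 in control replicate 1, Adamts19 in mito-supplemented replicate 2, and Adamts1 in control replicate 4 and mito-supplemented replicates 3 and 4. Over the 5 libraries without high erythroid markers, an alternative added after the data were seen, the mean was 14.4 CPM per kb for Adam10, 14.8 for Adamts1 and 15.2 for Adamts19. Adam10 was followed among Adam genes, over all 8 libraries, by Adam17, which releases tumour necrosis factor and ligands of the EGF receptor, at 5.41 ± 1.75, Adam12 at 3.91 ± 4.32 and Adam9 at 3.24 ± 1.27 CPM per kb (SD, n = 8 each). The order of Adam17, Adam12 and Adam9 lay within their spread over libraries. Adam33 ranked 6th of 32 Adam genes and 15th of 56 members at 1.30 ± 2.21 CPM per kb (SD, n = 8), a mean that rests on mito-supplemented replicate 4 for 63.5% of its summed CPM. Among Adamts genes, Adamts1 (11.2 ± 8.54) and Adamts19 (10.8 ± 9.57) had the highest means, ahead of Adamts16 (5.35 ± 2.72) and Adamts17 (4.80 ± 3.62), all in CPM per kb (SD, n = 8). This order did not hold in each library. Adamts16 lay above Adamts19 in control replicates 2, 3 and 4 (11.7%, 10.3% and 11.9% of the Adamts sum, against 10.4%, 4.55% and 11.6%). Adamts16 lay above Adamts1 in control replicate 1 (17.6% against 14.6%), and Adamts17 did so in mito-supplemented replicate 1 (16.2% against 13.4%). Adamtsl1 had the highest mean of the Adamtsl genes at 1.80 ± 1.72 CPM per kb, and Adamtsl4, Adamtsl5 and Adamtsl3 had means of 0.360, 0.201 and 0.0620 CPM per kb. The level of Adamtsl1 was highest in control replicate 1 (5.21 CPM per kb). In mito-supplemented replicate 2 it held 26.9% of the Adamtsl sum, below Adamtsl5 (36.3%) and Adamtsl4 (35.3%). Over all members listed, the median of these means was 0.0699 CPM per kb for Adam, 0.879 for Adamts and 0.201 for Adamtsl genes.

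**Figure D1:**
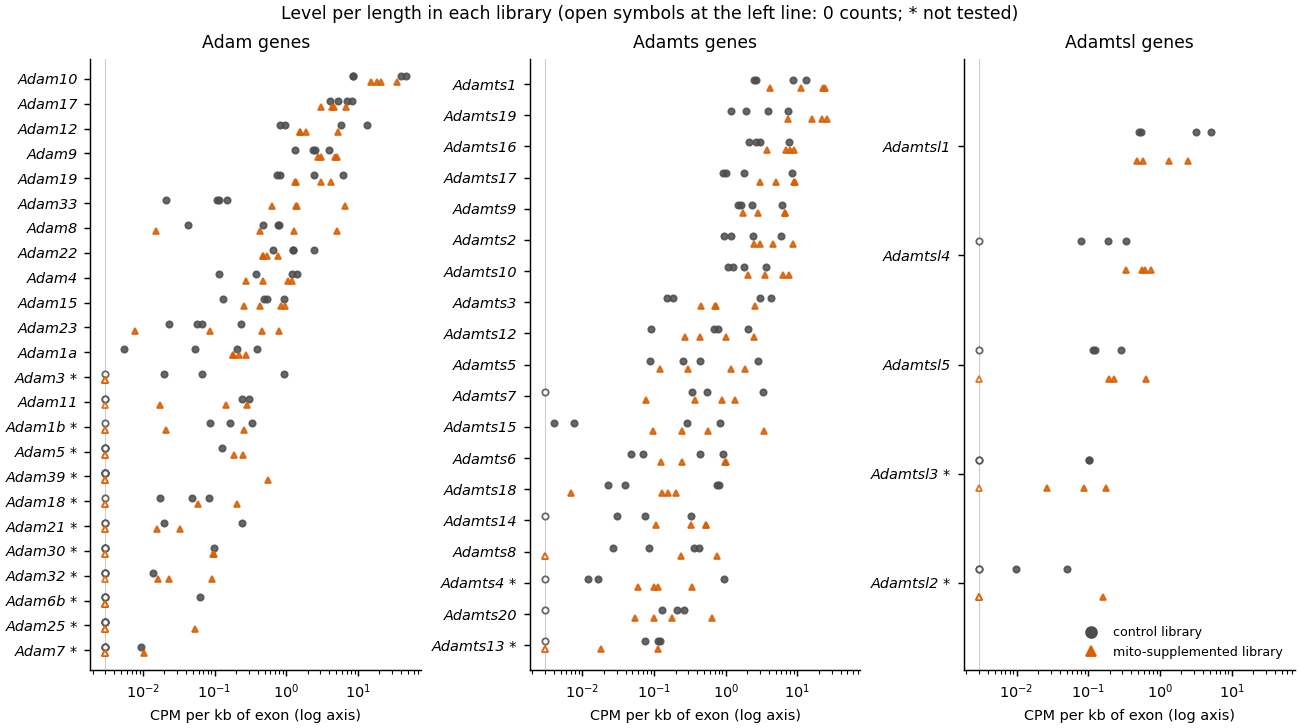
Level of each member with a count, in CPM per kb of exon on a log axis, for the 4 control libraries (circles) and the 4 mito-supplemented libraries (triangles), with open symbols at the left line for 0 counts and a star for genes not tested. Adam10 has the highest mean (24.2 CPM per kb) but is the highest member in 3 of the 8 libraries only, and Adam33 is the 1 tested member whose groups do not overlap.

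The families were next compared by their summed level in each library. Adam genes summed to 45.7, 61.2, 54.3 and 26.1 CPM per kb in the controls and 55.1, 37.3, 41.02 and 39.96 in the mito-supplemented libraries. The groups overlapped, with means of 46.8 ± 15.2 and 43.4 ± 7.998 CPM per kb (SD, n = 4 each), and Adam10 held between 18.96% and 76.3% of the sum. Adamts genes summed to 17.2, 18.3, 25.8 and 64.003 CPM per kb in the controls and 31.4, 76.4, 82.4 and 80.3 in the mito-supplemented libraries. Mito-supplemented replicates 2, 3 and 4 lay above every control, while mito-supplemented replicate 1 lay below control replicate 4. The means were 31.3 ± 22.1 and 67.6 ± 24.3 CPM per kb (SD, n = 4 each), and without Adamts19 they were 27.7 ± 19.8 and 49.7 ± 18.4 (SD, n = 4 each). Without Adamts19, mito-supplemented replicate 3 and replicate 4 still lay above every control per kb and replicate 2 did not. The margin of replicate 4 was small (57.9, against 56.6 CPM per kb in control replicate 4). In CPM without division by length, mito-supplemented replicate 4 lay below control replicate 4 (432 against 462 CPM). Adamtsl genes summed to 5.29, 0.869, 1.30 and 3.43 CPM per kb in the controls and 1.21, 1.78, 3.63 and 2.09 in the mito-supplemented libraries, and these values interleaved. The summed stroma markers were highest in control replicate 4 and mito-supplemented replicates 3 and 4, which were the highest control and the 2 highest libraries of the Adamts sum per kb. This order depended on the scale, since the Adamts sum in CPM without division by length was highest in mito-supplemented replicate 2 (780.1 CPM, against 741 and 747 in replicates 3 and 4). The part of stroma cells in the Adamts sum was not tested.

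Between the groups, edgeR's quasi-likelihood test, with p-values adjusted by the Benjamini-Hochberg method over the 13873 genes, called 0 of the 33 tested members at an adjusted p under 0.05 and a 2-fold difference, and 0% of all genes tested. The likelihood ratio test of edgeR, which the study used, called Adam33 and 0 of the other 32 members, against 0.418% of all genes. DESeq2 called Adam33 and Adamts19, against 1.02% of all genes. In libraries simulated at the spread of these data, the quasi-likelihood test recovered 6.19% of genes changed by 2 log2 units. Its 0 calls are therefore no evidence that the members did not differ. The likelihood ratio test recovered 34% of such genes and also called 34 unchanged genes. At an unadjusted p under 0.05 in the quasi-likelihood test there were 4 members. Adamts19, Adamts10 and Adam33 were on the higher side in mito-supplemented libraries, 3 of 33 where 5.31% of all genes were, or 2 of 32 without Adam33. Adam22 was on the lower side, 1 of 33 where 2.40% were. Adam33 was the 1 member whose mito-supplemented libraries all lay above its controls, which held for 3.00% of all genes, and 0 members had the reverse pattern, which held for 2.03%. Adam33 was selected on this contrast, so its place in these counts is no support for it, and its likelihood ratio call ended when mito-supplemented replicate 4 was left out (adjusted p = 0.0535).

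Adam33 (chromosome 2, 131050591 to 131063814 on GRCm38, minus strand) encodes a membrane-anchored protease known from mesenchymal cells and smooth muscle of the airway, with the zinc-binding motif shown above. It had 15, 10, 2 and 3 counts in the controls and 153, 109, 74 and 511 counts in the mito-supplemented libraries. As levels these were 0.615, 0.793, 0.114 and 0.592 CPM in the controls and 7.42, 7.55, 3.36 and 35.5 CPM in the mito-supplemented libraries. All mito-supplemented libraries were above all controls, of which replicates 3 and 4 had 3 counts or fewer, and mito-supplemented replicate 4 was 4.71 times the next highest library. The log2 fold change was 4.67 (SE 0.98), the highest of the 33 members, and 12 of all genes tested had a higher one. Adam33 was selected on this contrast, and its few control counts alone would not have passed the filter on low counts. Its rank is therefore a description. Without mito-supplemented replicate 4 the log2 fold change was 3.56. Among the other Adam genes tested, the highest log2 fold changes were those of Adam23 (1.81) and Adam8 (1.68), named after their values were seen, both with overlapping groups. The difference between Adam33 and the other members was not tested.

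**Figure D2:**
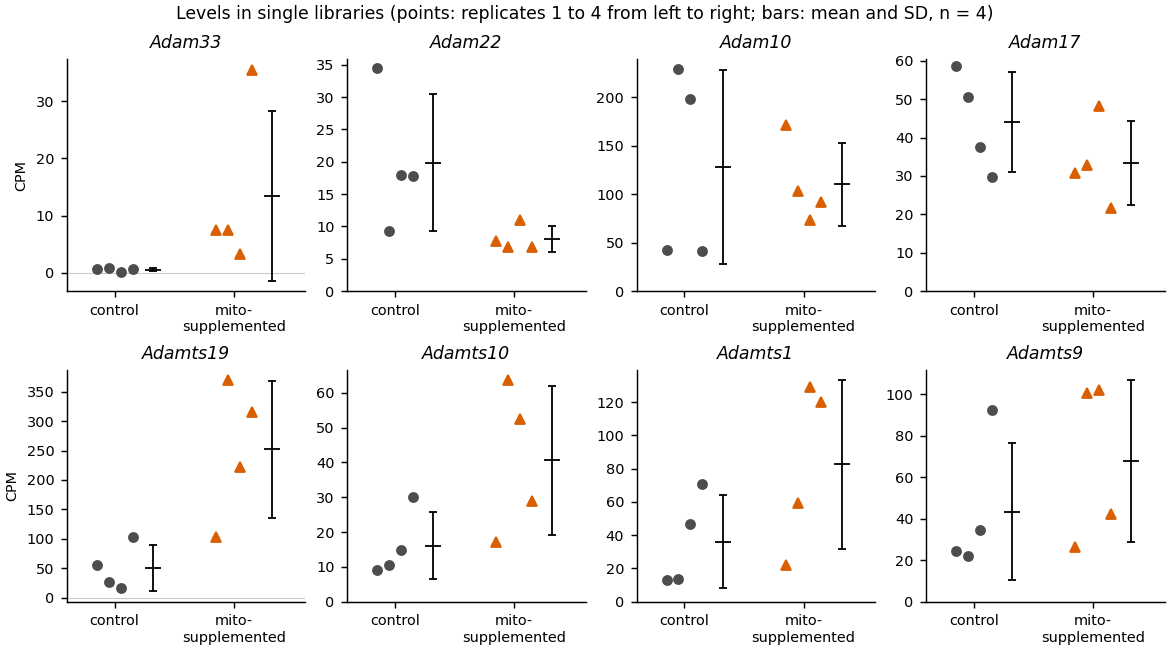
CPM in single libraries for 8 named genes, with circles for control and triangles for mito-supplemented replicates 1 to 4 and bars for the mean and SD (n = 4). Adam33 is the 1 gene of the 8 without overlap between the groups, and its mito-supplemented values run from 3.36 to 35.5 CPM.

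The shedding proteases Adam10 and Adam17 are the best studied of the family. Adam10 (chromosome 9, 70678997 to 70780229) had 42.6, 229, 198 and 41.4 CPM in the controls and 172, 103, 73.8 and 92.1 CPM in the mito-supplemented libraries. The 3 highest values were those of control replicates 2 and 3 and mito-supplemented replicate 1, the libraries with the highest erythroid markers, and both lowest were controls. Its log2 fold change was -0.22 (SE 0.59, adjusted p = 0.919) in edgeR's quasi-likelihood test, and it changed sign when control replicate 2 (0.23) or control replicate 3 (0.074) was left out. Without the 3 libraries with high erythroid markers, an alternative added after the data were seen, it was 1.11 over 2 control and 3 mito-supplemented libraries (adjusted p = 0.418 in edgeR's quasi-likelihood test). Adam17 (chromosome 12, 21323509 to 21373632), whose exons overlap those of Iah1 on the other strand, varied least of the 33 members, over 1.43 log2 units. It had 58.6, 50.5, 37.5 and 29.6 CPM in the controls and 30.8, 32.8, 48.2 and 21.6 CPM in the mito-supplemented libraries, with the groups overlapping. Its log2 fold change was -0.40 (SE 0.38, adjusted p = 0.778) in edgeR's quasi-likelihood test, and it was below 0 in all 17 alternatives. It ran from -0.60 without mito-supplemented replicate 3 to -0.18 on scaling by total counts, and was -0.21 without control replicate 1 or mito-supplemented replicate 4. The part of erythroid cells in the level of Adam10 was not tested.

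Adam9, Adam12 and Adam22 differed in which libraries were high. Adam9, a widely made shedding protease, had 16.3, 9.83, 10.5 and 5.53 CPM in the controls and 12.7, 11.4, 21.1 and 19.4 CPM in the mito-supplemented libraries. Replicates 3 and 4 of the mito-supplemented group were highest, and control replicate 1 lay above mito-supplemented replicates 1 and 2. Its log2 fold change was 0.61 (SE 0.47, adjusted p = 0.741) in edgeR's quasi-likelihood test. Adam12, which is made in developing mesenchyme and muscle, had 143, 10.1, 8.69 and 61.2 CPM in the controls and 16.6, 16.3, 55.1 and 19.9 CPM in the mito-supplemented libraries. Control replicate 1 was highest, 2.33 times the next library, and the log2 fold change of -1.04 (SE 0.86, adjusted p = 0.748) in edgeR's quasi-likelihood test became 0.055 without that library. Adam22, a receptor for LGI proteins at synapses, had 34.5, 9.28, 18.01 and 17.8 CPM in the controls and 7.71, 6.79, 10.9 and 6.81 CPM in the mito-supplemented libraries. Controls 1, 3 and 4 lay above every mito-supplemented library and control replicate 2 lay among them. Its log2 fold change was -1.30 (SE 0.49, adjusted p = 0.626) in edgeR's quasi-likelihood test and -0.87 on omission of control replicate 1. In all, 5 of the 13 tested Adam genes (Adam11, Adam12, Adam17, Adam19 and Adam22) and 1 gene of each other family (Adamts18 and Adamtsl1) were highest in control replicate 1, the library with the highest oocyte marker sum. The part of oocyte content in these values was not tested.

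The remaining tested Adam genes were Adam8, Adam11, Adam15, Adam19, Adam1a, Adam23 and Adam4. Their log2 fold changes ran from -0.34 (Adam11) to 1.81 (Adam23), with standard errors from 0.72 to 1.60. Adam8, a protease of myeloid cells named here after its values were seen, had 2.22, 3.73, 3.55 and 0.197 CPM in the controls and 23.4, 6.03, 1.996 and 0.0695 CPM in the mito-supplemented libraries. Mito-supplemented replicate 1 was 3.88 times the next library, and it also had the highest sum of immune markers. These summed to 16.3, 141, 124 and 22.5 CPM in the controls and 781, 12.6, 19.5 and 8.69 CPM in the mito-supplemented libraries, with Lyz2 the most abundant and C1qb at 0 in every library, and 6 of 10 were tested. Their part in the level of Adam8 was not tested. Counts of Adam1a are uncertain because its exons overlap those of Mapkapk5 on the same strand and because Adam1b is a related copy. Adam6a and Adam6b, and Adam26a and Adam26b, are further pairs of copies between which reads cannot be assigned with certainty.

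Most of the tested Adamts genes, 13 of 17, had a log2 fold change above 0, against 6 of 13 Adam and 2 of 3 Adamtsl genes and 44.9% of all genes tested. Adamts19, which is known for its expression in the developing ovary, had the highest of them. Its level (chromosome 18 of GRCm38) was 55.5, 26.7, 16.5 and 104 CPM in the controls and 103, 369, 221 and 315 CPM in the mito-supplemented libraries. Mito-supplemented replicates 2, 3 and 4 lay above every control, and mito-supplemented replicate 1 and control replicate 4 were nearly equal. The means were 50.6 ± 39.1 and 252 ± 117 CPM (SD, n = 4 each), and the log2 fold change was 2.32 (SE 0.62, adjusted p = 0.544) in edgeR's quasi-likelihood test and 2.96 without control replicate 4. In the likelihood ratio test of edgeR the adjusted p was 0.0779, and refits of this test, added after the data were seen, gave 0.00512 without control replicate 4, 0.00880 without mito-supplemented replicate 1 and 0.444, the highest, with mito-supplemented replicate 2 left out. The refits that left out control replicate 4 and mito-supplemented replicate 1 called 331 and 387 genes in all, against 58 with all libraries. DESeq2 gave an adjusted p of 0.0330, and over the 17 alternatives other than these refits the adjusted p ranged from 0.0330 to 0.971 with log2 fold changes from 1.94 to 2.96. The surface epithelium markers followed a similar order of libraries, with all 10 of 10 higher, 7 at an unadjusted p under 0.05 (against 5.31% of all genes) and 0 past adjustment in edgeR's quasi-likelihood test. Their lead gene Lgr5 had 21.1, 16.6, 9.44 and 82.5 CPM in the controls and 126, 268, 128 and 179 CPM in the mito-supplemented libraries, and their part in the level of Adamts19 was not tested.

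The proteoglycan-cutting members Adamts1, Adamts9 and Adamts15 all carry the asparagine form of the motif. Adamts1 (chromosome 16, 85793827 to 85803113) had 13.3, 13.95, 46.6 and 70.7 CPM in the controls and 22.3, 59.4, 129 and 119.8 CPM in the mito-supplemented libraries. Mito-supplemented replicates 3 and 4 were above every control, and mito-supplemented replicates 1 and 2 lay below control replicate 4. The log2 fold change was 1.20 (SE 0.68, adjusted p = 0.681) in edgeR's quasi-likelihood test. Adamts9, which is close in sequence to Adamts20, had 24.4, 22.04, 34.7 and 92.2 CPM in the controls and 26.6, 100.4, 102 and 42.1 CPM in the mito-supplemented libraries. Control replicate 4 lay near the highest mito-supplemented libraries, and the log2 fold change was 0.65 (SE 0.59, adjusted p = 0.771) in edgeR's quasi-likelihood test and 1.34 without this control. Its exons overlap those of 2 noncoding genes on the other strand. Adamts15 had 0.0410, 0.0793, 2.97 and 8.49 CPM in the controls and 2.52, 5.89, 0.998 and 34.9 CPM in the mito-supplemented libraries, in which mito-supplemented replicate 4 was 4.11 times the next library. Its log2 fold change of 1.98 (SE 1.51, adjusted p = 0.738) in edgeR's quasi-likelihood test was 0.17 without that library and 3.41 on omission of control replicate 4. Of the other aggrecan-cutting members, Adamts5 lies next to Adamts1 on chromosome 16 and had a log2 fold change of -0.047, and Adamts8 and Adamts20 had 0.17 and 0.65.

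Adamts10 and Adamts17 are linked to fibrillin microfibrils, with Adamts6 and Adamts19 as their closest relatives. Adamts10 (chromosome 17, 33524204 to 33553782) had 8.98, 10.5, 14.98 and 30.001 CPM in the controls and 17.1, 63.8, 52.6 and 28.9 CPM in the mito-supplemented libraries. Mito-supplemented replicates 2 and 3 lay above every control and mito-supplemented replicates 1 and 4 below control replicate 4. The means were 16.1 ± 9.61 and 40.6 ± 21.4 CPM (SD, n = 4 each), and the log2 fold change was 1.34 (SE 0.54, adjusted p = 0.636) in edgeR's quasi-likelihood test. Adamts17 had 7.92, 7.06, 13.8 and 64.9 CPM in the controls and 39.4, 68.8, 23.7 and 72.5 CPM in the mito-supplemented libraries. Control replicate 4 stood with the higher mito-supplemented libraries, and the log2 fold change of 1.13 (SE 0.74, adjusted p = 0.711) in edgeR's quasi-likelihood test was 2.42 without it. Adamts16, a gene of the developing gonad and kidney, had 20.6, 14.7, 18.2 and 52.1 CPM in the controls and 25.6, 53.95, 60.5 and 46.9 CPM in the mito-supplemented libraries. It again had control replicate 4 among the mito-supplemented libraries, with a log2 fold change of 0.83 (SE 0.48, adjusted p = 0.683) in edgeR's quasi-likelihood test and 1.41 without this control. Adamts18, the closest relative of Adamts16, had 8.33, 7.61, 0.229 and 0.395 CPM in the controls and 2.09, 1.32, 1.59 and 0.0695 CPM in the mito-supplemented libraries. Control replicates 1 and 2 were high and the other controls lay within the mito-supplemented range, and its log2 fold change of -1.71 (SE 1.28, adjusted p = 0.736) was the lowest of all members in edgeR's quasi-likelihood test, and was -1.10 on omission of control replicate 1.

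The procollagen N-proteinases Adamts2, Adamts3 and Adamts14 had log2 fold changes of 0.87, -0.77 and 1.75, with standard errors of 0.64, 1.05 and 1.29. Their adjusted p values were 0.732, 0.839 and 0.736 in edgeR's quasi-likelihood test, and the difference between them was not tested. Adamts3, named after its values were seen, had 0.820, 23.2, 16.2 and 0.987 CPM in the controls and 13.9, 3.81, 4.04 and 2.43 CPM in the mito-supplemented libraries. Like Adam10, it was highest in control replicates 2 and 3 and mito-supplemented replicate 1, the libraries with high erythroid markers. The remaining members Adamts6, Adamts7 and Adamts12 had log2 fold changes of 0.72, -0.64 and 0.24.

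**Figure D3:**
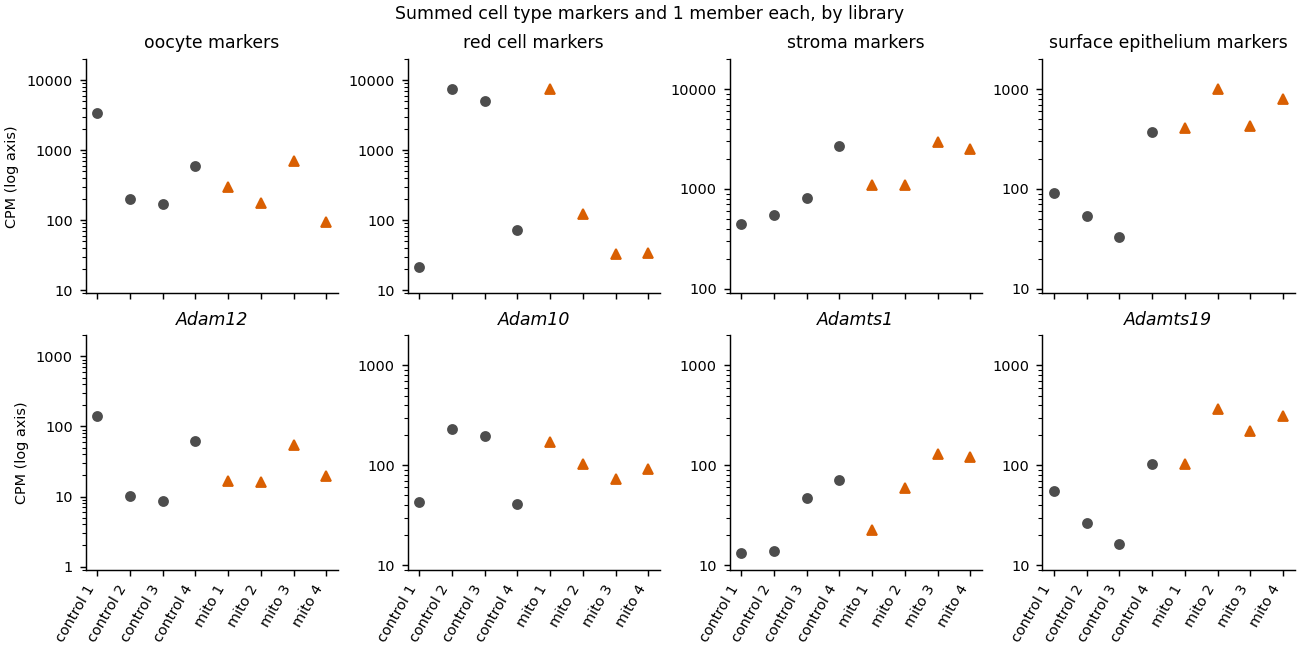
Summed CPM of 4 marker lists (top) and CPM of 1 member each (bottom) in the 8 libraries, on log axes, with circles for controls and triangles for mito-supplemented libraries. The pairs were chosen after the values were seen: control replicate 1 is highest for both oocyte markers and Adam12, and control replicates 2 and 3 and mito-supplemented replicate 1 for both erythroid markers and Adam10.

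Among the Adamtsl genes, which lack the protease domain, Adamtsl1 had the highest mean level. It had 66.5, 7.06, 6.52 and 40.9 CPM in the controls and 7.52, 6.09, 31.9 and 17.2 CPM in the mito-supplemented libraries, with control replicate 1 highest. The log2 fold change was -0.95 (SE 0.82, adjusted p = 0.762) in edgeR's quasi-likelihood test and -0.17 without that library. Adamtsl4, which binds fibrillin microfibrils and is known for its role in holding the lens, had 0.328, 0.793, 1.43 and 0 CPM in the controls and 1.41, 2.63, 2.36 and 3.13 CPM in the mito-supplemented libraries. Mito-supplemented replicates 2, 3 and 4 lay above every control, and replicate 1 was just below control replicate 3. The log2 fold change was 1.84 (SE 1.03, adjusted p = 0.681) in edgeR's quasi-likelihood test, and 2.57 without control replicate 3, with between 0 and 25 counts in each control. Adamtsl5 had 0, 0.555, 1.37 and 0.592 CPM in the controls and 0.922, 3.05, 1.09 and 0 CPM in the mito-supplemented libraries, in which the groups overlapped. Its log2 fold change of 1.00 (SE 1.46, adjusted p = 0.850) in edgeR's quasi-likelihood test was 1.78 on omission of control replicate 3 and 0.10 on omission of mito-supplemented replicate 2. Adamtsl3, which was not tested, had 0, 0, 0.801 and 0.790 CPM in the controls and 0.679, 0.208, 1.36 and 0 CPM in the mito-supplemented libraries, with both groups holding libraries at 0.

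The median log2 fold change was -0.015 over the 13 tested Adam genes, 0.72 over 17 Adamts genes and 1.00 over 3 Adamtsl genes, against -0.10 over all 13873 genes tested. Members that did not pass the filter have no part in these medians, and the members were measured in the same 8 libraries, so the medians are descriptions, and the difference between the families was not tested. With scaling by total counts alone, the median of all genes was 0.17 and those of the families were 0.51, 1.37 and 1.42. The sign of the Adam median thus changed, and those of Adamts and Adamtsl genes did not. The split of higher and lower members became 9 of 13 Adam and 15 of 17 Adamts genes higher. With DESeq2 size factors the Adam median stayed below 0 (-0.0091). It was above 0 with the replicate block (0.33), with rRNA genes left out (0.036) and with either other expression filter (0.19 and 0.032). With a library omitted it ran from -0.019 to 0.31. The Adamts median was 1.64 without control replicate 4, the highest with a library omitted, and 0.42 without mito-supplemented replicate 3. The spread between libraries was wide in each family. The median biological coefficient of variation was 0.825 for Adam, 0.992 for Adamts and 0.853 for Adamtsl genes, and 0.671 over all genes. It ran from 0.463 for Adam17 to 1.55 for Adam11, and was 0.828 for Adam33.

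**Figure D4:**
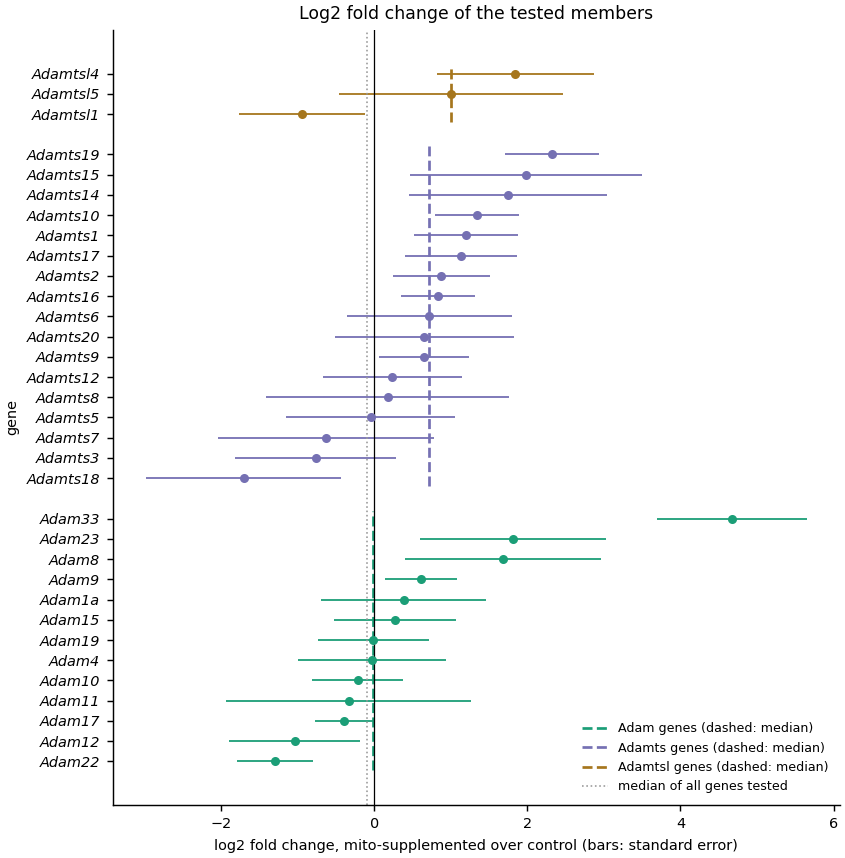
Log2 fold change of mito-supplemented over control for the 33 tested members by family, with bars for the standard error, dashed lines for the family medians and a dotted line for the median of all genes tested. Adam33, which was selected on this contrast, lies apart at 4.67, and the other 32 members lie between -1.71 and 2.32.

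The library with the highest level was counted for each family, and the difference between the families was not tested. Of the 17 tested Adamts genes, 6 were highest in mito-supplemented replicate 3, 4 in replicate 4 and 3 in replicate 2, and 9 were lowest in control replicate 1. Of the 13 tested Adam genes, 5 were highest in control replicate 1, 2 in control replicate 2 and 2 in mito-supplemented replicate 3. Control replicate 3 was highest for 0 of the 33 members. Adamts1, Adamts2 and Adamts5, chosen after their values were seen, had their 3 highest levels in control replicate 4 and mito-supplemented replicates 3 and 4, as did the stroma marker sum.

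**Figure D5:**
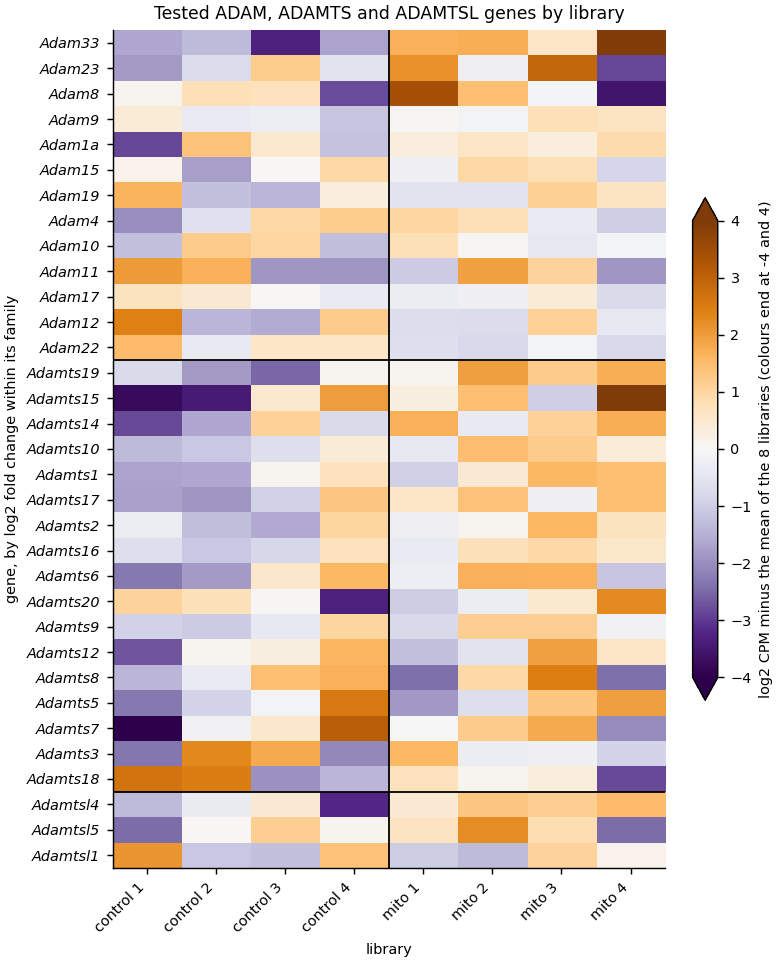
Log2 CPM of the 33 tested members in the 8 libraries, minus the mean of each gene over the libraries, by family and by log2 fold change within it, with colours that end at 4 log2 units on either side. Adam33 is the 1 row of 33 in which every control lies below every mito-supplemented library.

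The genes that act with these proteases were taken from 8 lists, in each of which 0 genes were called in edgeR's quasi-likelihood test and 0 in its likelihood ratio test. Beside the counts that follow, 44.9% of all genes tested had a log2 fold change above 0, and at an unadjusted p under 0.05 5.31% were higher and 2.40% lower. Of the tissue inhibitors of metalloproteinases and the related inhibitor Reck, 4 of 5 were tested and all 4 were higher, with a median log2 fold change of 1.45. Timp3, the inhibitor of ADAM17 and several ADAMTS proteases, had 38.9, 22.04, 41.9 and 73.6 CPM in the controls and 65.5, 133, 134 and 119.8 CPM in the mito-supplemented libraries. Timp2 had 12.9, 15.6, 42.03 and 31.6 CPM in the controls and 47.5, 99.3, 102 and 149.8 CPM in the mito-supplemented libraries. All mito-supplemented libraries lay above all controls for Timp2, and for Timp3 all but replicate 1 did. The log2 fold change was 1.36 (SE 0.43, adjusted p = 0.599) for Timp3 and 1.96 (SE 0.50, adjusted p = 0.544) for Timp2 in edgeR's quasi-likelihood test, both with an unadjusted p under 0.05. Reck and Timp1 had log2 fold changes of 0.63 and 1.53.

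The partners of ADAM10 and ADAM17, which are the iRhoms, their binding partner Frmd8 and the TspanC8 tetraspanins, had 5 of 8 tested genes higher and 3 lower (median log2 fold change 0.52). Tspan33 had 10.5, 178, 109 and 3.36 CPM in the controls and 114, 8.10, 3.81 and 0.556 CPM in the mito-supplemented libraries, and was thus high in the same libraries as Adam10 and the erythroid markers. Tspan5 had 8.49, 5.47, 6.98 and 16.97 CPM in the controls and 21.3, 41.7, 21.1 and 30.5 CPM in the mito-supplemented libraries, and all mito-supplemented libraries lay above all controls (3.00% of all genes), with a log2 fold change of 1.60 (SE 0.48, adjusted p = 0.599) in edgeR's quasi-likelihood test. Tspan15, named after its values were seen, had 3.69, 17.3, 11.8 and 3.16 CPM in the controls and 3.78, 1.39, 1.32 and 3.48 CPM in the mito-supplemented libraries, with the groups overlapping and a log2 fold change of -1.85 (SE 0.76, adjusted p = 0.636) in edgeR's quasi-likelihood test. Tspan5 on the higher side and Tspan15 on the lower were the 2 partners at an unadjusted p under 0.05. The iRhom genes Rhbdf2 and Rhbdf1 had 0.76 and 0.43. Of the proprotein convertases, which remove the prodomain of the proteases, 3 of 4 were higher (median 0.47). Pcsk6 was the most abundant of them in CPM, and Pcsk5 had the 1 unadjusted p under 0.05, with a log2 fold change of 1.49 (SE 0.54, adjusted p = 0.626) in edgeR's quasi-likelihood test.

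Among the substrates, the membrane-anchored EGF family ligands had 2 of 5 tested genes higher (median log2 fold change -0.38), and Areg, Ereg and Epgn were at 0 counts in several libraries. Btc, named after its values were seen, was the 1 ligand at an unadjusted p under 0.05. It had 0.246, 0.396, 0.114 and 0.395 CPM in the controls and 1.70, 1.80, 3.86 and 1.25 CPM in the mito-supplemented libraries, with all mito-supplemented libraries above all controls (3.00% of all genes) and a log2 fold change of 2.92 (SE 0.91, adjusted p = 0.599) in edgeR's quasi-likelihood test. In control replicates 3 and 4 its level lay under that of 3 counts (0.172 and 0.592 CPM). Btc passed the filter on low counts through the mito-supplemented libraries, so its difference is a description. Of the other proteins shed by ADAM10 or ADAM17, 9 of 13 tested genes were higher (median 0.44), 3 of them at an unadjusted p under 0.05 (5.31% of all genes). The most abundant were App and Notch2, with log2 fold changes of 1.11 (SE 0.53, adjusted p = 0.659) and 0.92 (SE 0.33, adjusted p = 0.626) in edgeR's quasi-likelihood test. Of the matrix proteins cut by ADAMTS proteases, 6 of 10 tested genes were higher (median 0.36) and 0 had an unadjusted p under 0.05. Col3a1, Col1a1 and Col1a2 belong to the stroma marker list as well. All 10 microfibril genes were higher (median 0.99), 2 of them at an unadjusted p under 0.05. Mfap4, among these genes, is also on the stroma marker list. Fbn2, the most abundant, had 189, 73.3, 115 and 359.8 CPM in the controls and 101, 344, 437 and 186 CPM in the mito-supplemented libraries, with the groups overlapping. Of 20 matrix metalloproteinases, which form the other large family of extracellular metalloproteinases, 8 were tested and all 8 were higher (median 1.00), 3 of them at an unadjusted p under 0.05, where 5.31% of all genes were. Mmp14, the most abundant in CPM, had 24.8, 28.3, 39.97 and 82.5 CPM in the controls and 53.4, 71.2, 103 and 116 CPM in the mito-supplemented libraries, with the groups overlapping, and Mmp3 and Mmp7 were at 0 in all libraries.

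The cell type markers give the setting of these directions, beside 44.9% of all genes above 0. Markers that were higher numbered 10 of 10 tested for stroma (median log2 fold change 0.69), 7 of 9 for granulosa cells (0.63), 6 of 8 for endothelium (1.10), 8 of 9 for smooth muscle (0.88), 10 of 10 for surface epithelium (1.96) and 6 of 6 for immune cells (0.90). They numbered 0 of 12 for oocytes (-1.81) and 0 of 5 for erythroid cells (-0.47). For 4 lists the direction rested on single libraries, in refits added after the data were seen. Higher oocyte markers numbered 8 of 12 (median 0.27) without control replicate 1, and higher immune markers 2 of 6 (median -1.97) without mito-supplemented replicate 1. Higher smooth muscle markers numbered 4 of 10 (median -0.37) without mito-supplemented replicate 4, and higher erythroid markers 4 of 5 (median 0.41) without control replicate 2. The erythroid median ran from -5.75 to 0.41 with a library omitted, the lowest without mito-supplemented replicate 1. Surface epithelium markers were higher in 10 of 10 with any library left out, with a median of 1.62 to 3.44. The median ran from 0.40 to 1.62 for stroma, 0.28 to 1.22 for granulosa cells, -0.37 to 2.10 for smooth muscle and 0.43 to 1.57 for endothelium, each highest without control replicate 4, and the endothelial median was lowest without mito-supplemented replicate 3. In edgeR's quasi-likelihood test 0 of these markers were called. In the likelihood ratio test 2 surface epithelium markers and 1 endothelial marker were, all on the higher side, where 0.418% of all genes were called in either direction. The summed level of granulosa markers was 224, 131, 219 and 620.4 CPM in the controls and 248, 683, 514 and 927 CPM in the mito-supplemented libraries, with Wt1 the most abundant and Amh at 0 in 1 library of each group. That of smooth muscle markers, to set beside Adam33, was 41.9, 31.8, 55.8 and 295 CPM in the controls and 53.6, 97.2, 119.9 and 413 CPM in the mito-supplemented libraries, with Myh11 the most abundant and Rgs5 at 0 in control replicates 1 and 2. Control replicate 4 and mito-supplemented replicate 4 were highest for smooth muscle markers, whereas Adam33 was high in the second of these and at 3 counts in the first. The surface epithelium sum, like Adam33, had every mito-supplemented library above every control. Its gene Gpm6a, set here after its values were seen, had 1.93, 4.20, 1.26 and 5.92 CPM in the controls and 38.9, 66.6, 40.8 and 124 CPM in the mito-supplemented libraries, highest like Adam33 in mito-supplemented replicate 4, with a log2 fold change of 4.37 (SE 0.65, adjusted p = 0.418) in edgeR's quasi-likelihood test. The adjusted p of Gpm6a in the likelihood ratio test was 1.06e-05. The surface epithelium sum and 6 of its 10 genes were instead highest in mito-supplemented replicate 2. Endothelial markers summed to 26.2, 29.5, 45.6 and 219 CPM in the controls and 99.4, 228, 185 and 201 CPM in the mito-supplemented libraries, with Kdr the most abundant and Cldn5 at 0 in 3 libraries. The parts of these cell types in the levels of the protease genes were not tested.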

How the data were processed

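RNA-Seq of 8 samples was analysed. The authors trimmed reads with Trim Galore 0.4.4, mapped them to GRCm38 with STAR 2.5.3a and deposited raw featureCounts counts per gene, per the submitters' processing notes, and left out 1 further control library, not analysed here. The annotation release, strand and multi-mapping settings are not given in the sources used here. These counts were given to edgeR 4.0.16 (R 4.3.3) for TMM-normalized CPM and quasi-likelihood tests over the 13873 genes that passed its filter, with Benjamini-Hochberg adjustment. DESeq2 1.42.0 and the likelihood ratio test were alternatives. Log2 CPM used a prior count of 2. Exon lengths and coordinates are from GENCODE M21 (24564 symbols matched, 2095 by an older symbol). Genes named were Adam33; Adam10, Adam17, Adamts1 and Adamts9; the 4 highest per length in each family; members at an unadjusted p under 0.05; the 3 highest and lowest log2 fold changes; and up to 4 genes per list. Members and lists were chosen with earlier results of these data known. As a check, known changes were put into simulated libraries and both edgeR tests were run. At the spread of these data, the quasi-likelihood test recovered 6.19% of genes changed by 2 log2 units and 54.7% of those changed by 4. It called 3 unchanged genes. The likelihood ratio test recovered 34% and 81.1%, and called 34 unchanged genes. At a dispersion of 0.04 both recovered 100% and called 0 unchanged genes.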

Additional observations from a re-analysis of the deposited data

Results flagged for a closer look

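In 3 of 56 groups of 4 libraries examined, 1 library stood apart from the other 3, and chance gives about 1 in 20 groups, or 2.8. Adam12 was at 5.79 log2 CPM in mito-supplemented replicate 3, against 4.04, 4.07 and 4.32 in the other 3. The summed level of Adamts genes in mito-supplemented replicate 1 was 8.17 as log2 of summed CPM plus 1, against 9.54, 9.55 and 9.61 in the others. The summed level of immune markers in mito-supplemented replicate 1 was 9.61 as log2 of summed CPM plus 1, against 3.28, 3.77 and 4.36 in the others. The cause was not tested for these values.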

How the results depend on the processing

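Across the alternatives, 279 of 288 log2 fold changes of 17 named genes kept their direction and their side of the threshold. In every quasi-likelihood fit 0 of all genes tested passed the threshold, so sides could change only by the likelihood ratio test and DESeq2. Of the 288, 6 changed sign. Adam10 did so on scaling by total counts (0.042), with the replicate block (0.13), without control replicate 2 or 3 (0.23 and 0.074), and without the 3 libraries highest in red-cell markers (1.11), an alternative chosen after seeing the data. Over the 8 fits with a library omitted, Adam10 lay between -0.50 and 0.23 and Adam12 between -1.62 and 0.055, its sign changing (0.055) on omission of control replicate 1. Adam33, selected on this contrast, passed by the likelihood ratio test and DESeq2, and Adamts19 by DESeq2. Members called by the quasi-likelihood test of edgeR numbered 0 (4 at an unadjusted p under 0.05), against 1 by the likelihood ratio test, 2 by DESeq2 and 0 in every other quasi-likelihood fit. Refits of the likelihood ratio test, added after the data were seen, did not call Adam33 without mito-supplemented replicate 4 (adjusted p = 0.0535) and called Adamts19 without control replicate 4, without mito-supplemented replicate 1 and without the 3 libraries. The refits that called Adamts19 called 331, 387 and 175 genes in all, in that order, against 58 with all libraries. Members at an unadjusted p under 0.05 numbered 8 on scaling by total counts (9.67% of all genes, against 7.71% before), and 2 to 9 with a library omitted, where the most, without control replicate 4, came with 12.6% of all genes and the fewest, on omission of control replicate 1 or mito-supplemented replicate 2, with 7.67% and 3.95%. Members with no overlap of groups (1, Adam33) numbered 5 on scaling by total counts, where 6.83% of all genes had none, against 5.03% before. They numbered 2 (with Adamts19) when rRNA genes were omitted (4.96% of all genes) and with either other expression filter (3.77% and 5.05%). They numbered 2 to 6 with a library omitted (5.72% to 13.7%, the most of both on omission of control replicate 4), and 10 without the 3 libraries, where 30.04% of all genes had none. The Adam median was 0.51 on scaling by total counts, 0.33 with the replicate block and -0.019 to 0.31 with a library omitted. The Adamts median was above 0 in all 17 alternatives (0.42 to 1.64 with a library omitted), and the Adamtsl median was 0.47 to 1.78 with a library omitted and 2.43 without the 3 libraries. With the replicate block 0 members were called, 5 were at an unadjusted p under 0.05 (7.07% of all genes), and the Adamts and Adamtsl medians were 1.01 and 0.98. Replicate numbers were not matched between groups (correlations -0.24, -0.19, -0.33 and 0.22). The cause was not tested. Members with few counts are limited by depth, above all in control replicate 4.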
